A study of Mus musculus with 11 samples.

Results

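The genes described here are Trp53, the regulators of its protein and the kinases that signal DNA damage to it: Trp53, Mdm4, Usp7, Ppm1d, Atm, Atr, Chek1, Chek2 and Trp53bp1. They were chosen by symbol, and each matched 1 row with a single symbol, so 9 of the 24138 loci of the deposited expression table were members. All 9 had a mean of at least 1 FPKM (sequenced fragments scaled by transcript length and by library size) over the 5 libraries and entered the test, as did 12672 loci in all. RNA came from mouse cortex at E14.5, in 3 control libraries and 2 conditional knockout (cKO) libraries of Chd8, a gene for a chromatin remodeller linked to autism. The cKO genotype was Chd8 c/c with Emx1-cre, whose recombinase acts in dorsal telencephalic progenitors and their descendants, so other cells of the dissected tissue keep Chd8. Control replicate 1 was Chd8 c/+ and control replicates 2 and 3 were Chd8 c/c. No Cre is given for the controls, so by the labels the driver allele is carried by the cKO group alone, and its effect cannot be told apart from that of the deletion. The labels do not say whether a library came from 1 embryo, and p-values measure only the spread between these libraries. The series also lists 6 samples of ATAC-seq, not used here.

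The p53 protein is a transcription factor that halts the cell cycle or starts cell death after DNA damage and other stress. Its amount is set mainly at the protein level: Mdm2 marks it for degradation, Mdm4 (MdmX) binds and inhibits it, and Usp7 removes ubiquitin from both Mdm2 and p53. Atm responds to double-strand breaks and acts through Chek2, whereas Atr responds to stalled replication forks and acts through Chek1. Both arms phosphorylate p53 or its inhibitors, Ppm1d (Wip1) is a phosphatase that reverses these marks, and Trp53bp1 (53BP1) is an adaptor recruited to chromatin around breaks. In the embryonic cortex, loss of many genes needed for division or genome integrity activates p53 in progenitors. Since much of this control acts on proteins, the RNA levels below do not measure p53 activity.

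None of the 9 members passed the test of cKO against control over all loci (limma, adjusted p between 0.575 and 0.913), and none had an unadjusted p under 0.05. Of all tested loci, 0.0473% passed after adjustment, and at an unadjusted p under 0.05 the share was 3.08% in the higher and 4.37% in the lower direction. In the authors' deposited table no member was marked significant either, against 4.21% of the loci it tested. Both cKO libraries lay above every control for 4 of the 9 members (Ppm1d, Atm, Atr and Chek1), where 13.4% of tested loci did so. Both lay below every control for 1 of the 9, Trp53, where 15.6% did so. The members' log2 changes (cKO minus control, on log2(FPKM + 1)) ran from -0.41 for Trp53 to 0.48 for Chek1, with a median of 0.13, and that of all tested loci was -0.03. With 3 and 2 libraries the intervals were wide, and the 95% interval of every member included 0.

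**Figure D1:**
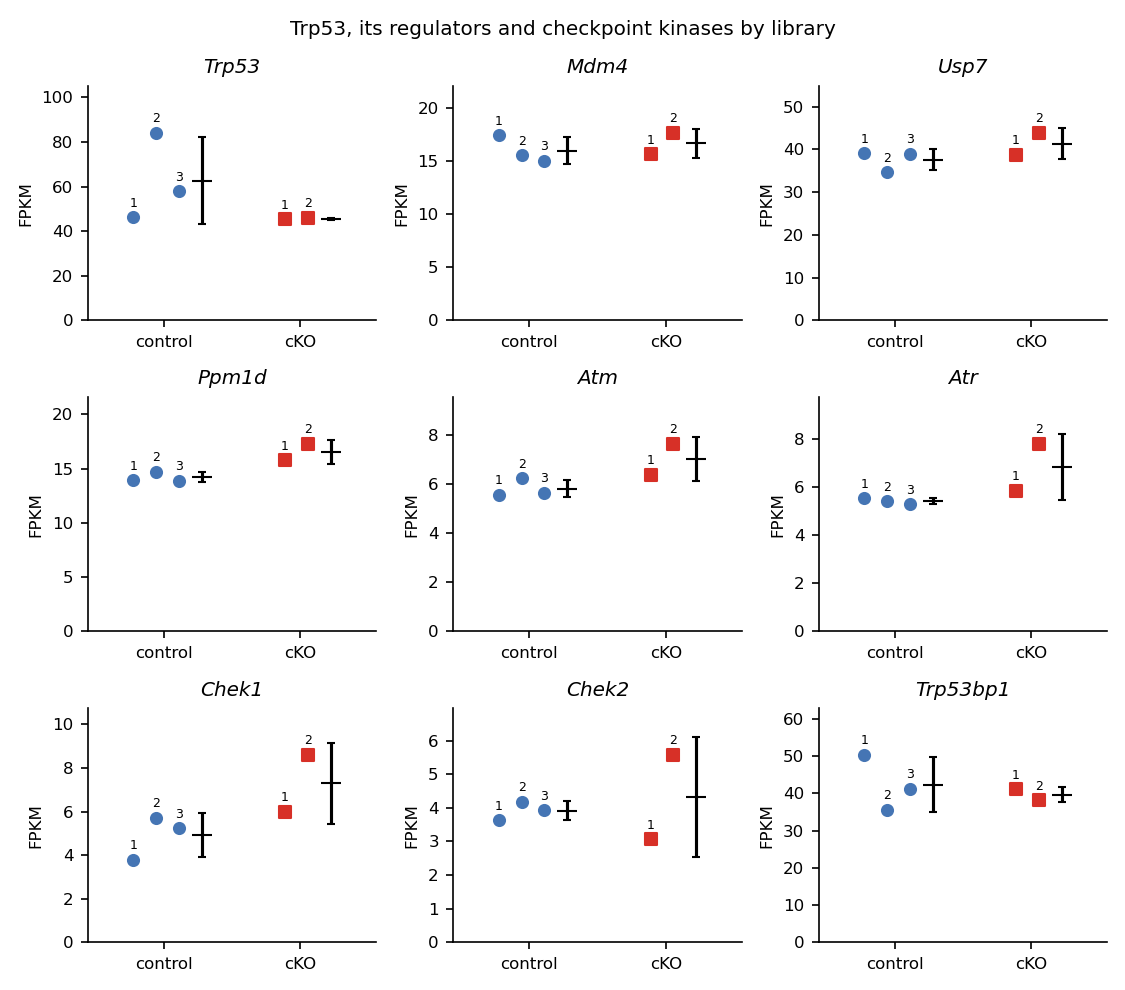
Expression in FPKM of the 9 members in each library, with control replicates 1 to 3 as blue circles and cKO replicates 1 and 2 as red squares, and the group mean with SD as a black bar. Trp53 was 84.1 in control replicate 2 and between 45.35 and 57.9 elsewhere, and for Ppm1d, Atm, Atr and Chek1 both squares lie above all circles.

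Chd8 itself was 31.5, 30.02 and 31.8 FPKM in control replicates 1 to 3 and 19.3 and 15.1 in cKO replicates 1 and 2, so the groups were apart as labelled. Its log2 change was -0.83 (limma adjusted p = 0.575), so the deleted gene itself did not pass over all loci. The treatment protocol of the RNA libraries mentions Eed in place of Chd8, while titles, genotypes and the extraction protocol give Chd8. Eed, a subunit of Polycomb repressive complex 2, was 17.8, 20.9 and 20.8 FPKM in controls and 19.02 and 18.1 in the cKO, and these values overlapped (log2 change -0.09, limma adjusted p = 0.80). FPKM summed to 418191 to 484296 per library, 12237 to 12717 loci reached 1 FPKM in a library, and libraries had Pearson correlations of 0.88 to 0.933 across loci. Whole reads could not be recovered from low values, so the sequencing depth behind each value is unknown. Cell type markers differed between libraries. Of 10 intermediate progenitor markers, 9 had a negative change, and their summed level was 471 to 933 FPKM in controls and 432 and 379 in the cKO. All 12 ventral telencephalic markers had a positive change (280 to 468 against 555 and 638), as had all 13 tested microglial markers (41.3 to 59.01 against 118 and 119). Radial glial markers summed to 1403 to 1938 in controls and 1450 and 1529 in the cKO, and neuronal markers to 2697 to 2947 against 3252 and 2508. These sums rest most on the most abundant genes. Of 11 radial glial markers, 7 had a negative change (median -0.28). Both cKO libraries lay below every control for 4 of the 11 and above for 1. Of 12 neuronal markers, 6 had a positive change, and both cKO libraries lay above every control for 4 and below for 0. Over all tested loci, 15.6% lay below and 13.4% above. In RNA of whole tissue, fewer cells of a type and less RNA per cell cannot be told apart, and the part of composition in the changes below was not tested.

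Trp53, on chromosome 11 (69580348 to 69591873 in GRCm38), was the most abundant member per length. It was at 46.2, 84.1 and 57.9 FPKM in control replicates 1 to 3 and at 45.35 and 45.98 in cKO replicates 1 and 2. Both cKO libraries lay below every control, but by 0.22 FPKM only, while the controls among themselves differed 1.82-fold. The mean was 45.7 ± 0.447 (SD, n = 2) against 62.7 ± 19.4 (SD, n = 3), or 72.8% of control. The log2 change was -0.41 (SE 0.26, 95% interval -1.06 to 0.25, limma adjusted p = 0.608), and an exact two-sided permutation test gave p = 0.2, where 0.1 is the smallest value that 3 against 2 libraries allow. The size of the change rested on control replicate 2. Without that library it was -0.18, and without control replicate 1, the Chd8 c/+ library, it was -0.60 (unadjusted p = 0.0465, adjusted p = 0.324 over all loci, where the alternatives gave 0.324 to 1). The groups no longer stood apart once libraries were rescaled by median-of-ratios size factors or by quantiles. In the authors' deposited table Trp53 had a log2 fold change of -0.46 with a p-value of 0.0162 and a q-value of 0.167.

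Trp53 and most intermediate progenitor markers were highest in control replicate 2. Eomes, the gene of Tbr2 and the defining factor of intermediate progenitors, was 37.9, 104 and 67.7 FPKM in controls and 36.5 and 18.3 in the cKO, and Neurog2, a proneural factor, was 67.4, 166 and 109 against 58.3 and 35.9. Control replicate 2 was the highest of the 5 libraries for 9 of the 10 markers, where 34.8% of all tested loci had their highest value in it, and both cKO libraries lay below every control for 6 of the 10, against 15.6%. Relative to the mean of the 10 markers, Trp53 lay 0.48, 0.56 and 0.48 log2 units above in controls 1 to 3 and 0.70 and 0.89 above in the cKO, so the markers were lower in the cKO by more than Trp53 was. Relative to 20 genes of S phase the order was the opposite: Trp53 lay 1.44, 1.53 and 1.26 log2 units above their mean in controls and 0.98 and 0.73 in the cKO. The same held relative to 20 genes of G2 and mitosis, by -0.53 on average. Relative to radial glial markers, Trp53 lay at -0.14, 0.37 and 0.15 in controls and at -0.05 and 0.05 in the cKO, and the groups overlapped (exact permutation p = 0.6). The other 3 differences of Trp53 had an exact permutation p = 0.1, the smallest possible. In all, 6 such comparisons of Trp53 or Chek1 with a list were made, after the values were seen, and none passed after Benjamini-Hochberg adjustment (adjusted p 0.15 to 0.6, exact permutation tests). The 3 loci whose pattern over the 5 libraries lay nearest to that of Trp53 were Mon1a, a component of a guanine nucleotide exchange factor for Rab7, Rpl8, a ribosomal protein, and Acy1, an aminoacylase. Their root mean square differences from it were 0.0274, 0.0381 and 0.0383 log2 units. Mon1a was 12.3, 22.6 and 15.3 FPKM in controls and 12.5 and 11.97 in the cKO, a likeness to Trp53 that the choice of the gene fixed.

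Trp53 has a close neighbour in Wrap53, a gene needed for telomerase RNA trafficking. On genome coordinates 97 bases lie between the annotated span of Wrap53 and the start of Trp53, and this does not give the direction of Wrap53. The strand setting of the counting is not given in the sources used here, so reads of transcripts that reach into the other gene could not be assigned. Wrap53 was 7.03, 17.96 and 11.3 FPKM in controls and 14.2 and 9.98 in the cKO, and its groups overlapped. The bases between the annotated genes (chr11:69580251-69580347, plus strand, RefSeq, GRCm38.p6) are shown because they hold a match to the p53 decamer motif, in capitals.
Trp53 upstream: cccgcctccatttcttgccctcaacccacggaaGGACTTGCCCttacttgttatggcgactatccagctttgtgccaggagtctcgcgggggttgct

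Among the regulators of p53 protein, Mdm4 (chromosome 1, 132986105 to 133030587) was nearly level between groups. It was 17.5, 15.5 and 15.03 FPKM in controls and 15.7 and 17.7 in the cKO, and the groups overlapped, with cKO replicate 2 just above the highest control. Its log2 change was 0.06 (95% interval -0.28 to 0.39, limma adjusted p = 0.88), an interval equal to 0.824 to 1.31 times the control on the FPKM + 1 scale. The annotated lncRNA Gm41953 overlaps Mdm4 and could share reads with it. Usp7 (chromosome 16, 8688722 to 8757067) was 39.1, 34.7 and 38.99 FPKM in controls and 38.7 and 43.9 in the cKO. cKO replicate 1 fell within the controls and cKO replicate 2 lay above them, with a log2 change of 0.13 (95% interval -0.20 to 0.47, limma adjusted p = 0.709).

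Ppm1d (chromosome 11, 85311254 to 85347071) was 13.9, 14.7 and 13.9 FPKM in controls and 15.8 and 17.3 in the cKO. Both cKO libraries exceeded every control, by 1.03 FPKM at the least, which was the widest gap among the members. The mean was 16.5 ± 1.08 (SD, n = 2) against 14.2 ± 0.469 (SD, n = 3), or 116.5% of control. This was a log2 change of 0.21 (SE 0.12, 95% interval -0.09 to 0.50, limma adjusted p = 0.578, exact permutation p = 0.1, the smallest possible). In the authors' deposited table it was 0.22 with a q-value of 0.696. The 250 bases before its annotated start (chr11:85311004-85311253, plus strand, RefSeq, GRCm38.p6) are shown because, of the members with groups apart, Ppm1d and Trp53 had a match to the p53 decamer motif there. In capitals stand the decamer, 132 to 123 bases before the start, and a CCAAT box read on the other strand as ATTGG, 109 to 105 bases before it.
Ppm1d upstream: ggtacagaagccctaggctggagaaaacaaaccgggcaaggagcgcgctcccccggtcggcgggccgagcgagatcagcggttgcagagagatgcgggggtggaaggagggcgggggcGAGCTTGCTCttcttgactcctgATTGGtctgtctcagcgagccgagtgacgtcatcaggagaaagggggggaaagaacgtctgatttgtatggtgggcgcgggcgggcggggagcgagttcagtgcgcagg

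The search covered 4 motifs on both strands in the 250 bases before each annotated start: the p53 decamer, the CCAAT box (CCAAT), the GC box (GGGCGG) and the E2F site (TTTCCCGC, TTTGGCGC, TTTCGCGC or TTTGCCGC). Of 32851 such windows in the mouse annotation, 7.13% held the p53 decamer, 33.8% a CCAAT box, 32.7% a GC box and 1.86% an E2F site. Among the members the decamer was found for Trp53 and Ppm1d, and the E2F site for Chek2 alone, 152 to 145 bases before its start. The window of Chek1 (chr9:36726659-36726908, minus strand) held none of the 4 motifs. Neither did the windows of Mdm4, which has annotated starts at 133025416 and 133030587. GC boxes are not capitalised in the sequence of Ppm1d, which holds 3. A match describes letters only and does not show binding.

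The 2 apical kinases were both higher in the cKO libraries than in every control. Atm (chromosome 9, 53437122 to 53536828) was 5.58, 6.25 and 5.66 FPKM in controls and 6.39 and 7.65 in the cKO. The gap between the groups was 0.14 FPKM, and after quantile normalization it was gone. Its log2 change was 0.23 (SE 0.14, 95% interval -0.13 to 0.59, limma adjusted p = 0.60). Atr (chromosome 9, 95857597 to 95953217) was 5.56, 5.41 and 5.31 FPKM in controls, the tightest control values of any member, and 5.87 and 7.81 in the cKO. Most of its difference came from cKO replicate 2. With all libraries the log2 change was 0.28 (SE 0.16, 95% interval -0.12 to 0.68, limma adjusted p = 0.578), and without cKO replicate 2 it was 0.10. That of Atm was 0.12 without the same library. Atr overlaps 1700065D16Rik and the lncRNA Gm16794 in the annotation. Npat, a histone gene activator that starts 60 bases from Atm, was 5.08, 4.98 and 4.88 FPKM in controls and 5.60 and 7.04 in the cKO, so both cKO libraries exceeded every control here too. Atr stood at 0.996, 0.866 and 0.938 times Atm in controls and at 0.919 and 1.02 times in the cKO, and these ratios overlapped.

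Chek1 (chromosome 9, 36708482 to 36726658), the kinase downstream of Atr, had the largest change of any member. It was 3.79, 5.73 and 5.23 FPKM in control replicates 1 to 3 and 5.99 and 8.60 in cKO replicates 1 and 2. Both cKO libraries lay above every control, with cKO replicate 1 only 0.26 FPKM above control replicate 2 and cKO replicate 2 higher still. The mean was 7.29 ± 1.85 (SD, n = 2) against 4.92 ± 1.003 (SD, n = 3), or 148% of control. On the log2 scale the change was 0.48 (SE 0.23, 95% interval -0.08 to 1.05, limma adjusted p = 0.575, exact permutation p = 0.2). With cKO replicate 2 left out it was 0.26, and with cKO replicate 1 left out 0.71. With control replicate 1 left out, the Chd8 c/+ library and the lowest for Chek1, it was 0.34. The authors' deposited table gave Chek1 a log2 fold change of 0.57, a p-value of 0.02145 and a q-value of 0.197.

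Of 40 genes of S phase, G2 and mitosis, 39 had their lowest value in control replicate 1, against 20.1% of all tested loci, and so did Chek1. The highest value lay in cKO replicate 2, as for Chek1, for 18 of the 40 (23.7% of all tested loci) and in control replicate 2 for 22 (34.8%), so the list was divided in this. The examples are among the genes with the smallest p of their lists. Rrm2, a subunit of the enzyme that makes deoxynucleotides, was 36.2, 68.7 and 58.2 FPKM in controls and 67.9 and 95.2 in the cKO, and Ccna2, which encodes cyclin A2, was 39.7, 54.8 and 52.7 against 55.3 and 72.2. Both were lowest in control replicate 1 and highest in cKO replicate 2. Ccne2, which encodes a cyclin of S phase entry, was 4.74, 4.04 and 4.31 against 5.93 and 8.46, with a different order among controls. Of 20 genes of S phase, 16 had a positive change (median log2 change 0.14), and of 20 genes of G2 and mitosis, 14 did (median 0.12), where 46.9% of all tested loci had one. The control mean behind these counts includes replicate 1, the Chd8 c/+ library and the lowest for 39 of the 40. The counts were not repeated without it. Without that library the log2 change was 0.34 for Rrm2 (0.61 with all libraries) and 0.65 for Ccne2 (0.60 with all libraries). Both cKO libraries lay above every control for 1 of the 20 genes of S phase (Ccne2) and 1 of the 20 of G2 and mitosis (Ccna2). Over all tested loci the share was 13.4%. In none of the 40 did both lie below every control (15.6% of all tested loci), which the low values of control replicate 1 nearly fixed. None of the 40 passed over all loci, and Ccne2 alone had an unadjusted p under 0.05. Relative to the mean of the S phase genes, Chek1 lay at -1.86, -2.14 and -1.99 log2 units in controls and at -1.75 and -1.56 in the cKO. Thus Chek1 was higher in both cKO libraries relative to these genes also, by 0.34 on average (exact permutation p = 0.2). Relative to the genes of G2 and mitosis it was higher by 0.36 (exact permutation p = 0.1). The part of cycling cells in the level of Chek1 was not tested further.

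**Figure D2:**
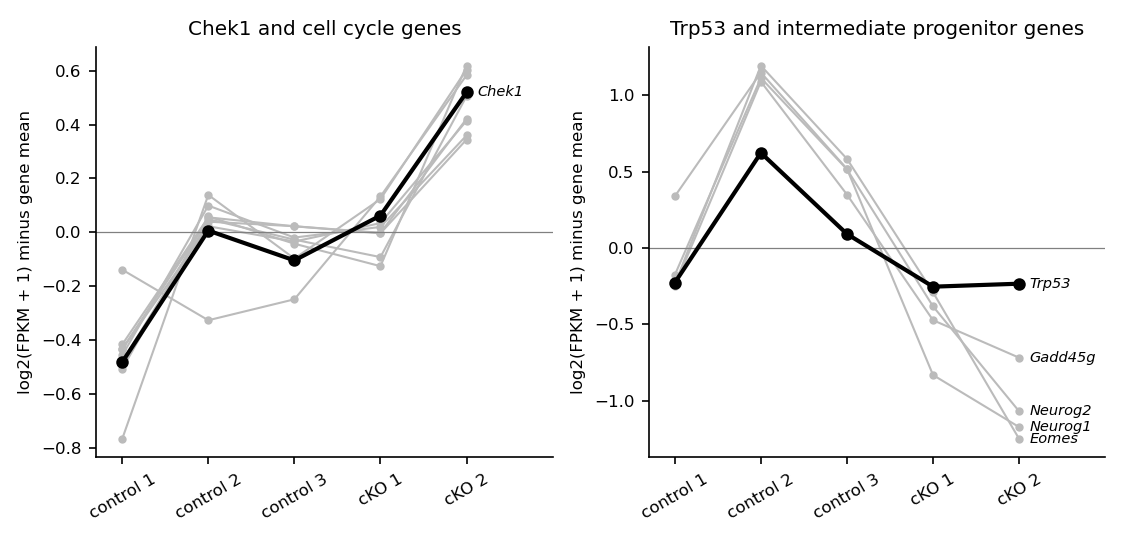
Expression in each library as log2(FPKM + 1) minus the mean of the gene over the 5 libraries, with Chek1 in black beside Mcm4, Pcna, Rrm2, Ccne2, Top2a, Ccnb1, Ccna2 and Bub1 in grey (left) and Trp53 in black beside 4 intermediate progenitor genes in grey (right); lines join the values of 1 gene, and the grey genes are those with the smallest p of their lists. Chek1 and most of the plotted cell cycle genes are lowest in control 1 and highest in cKO 2, which held for 17 of all 40 cell cycle genes, and Trp53 and the plotted intermediate progenitor genes are highest in control 2.

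Chek2 (chromosome 5, 110839800 to 110874140), the kinase downstream of Atm, was the least abundant member, at 3.63, 4.19 and 3.94 FPKM in controls and 3.06 and 5.57 in the cKO. The 2 cKO libraries lay on opposite sides of all controls. The log2 change of 0.07 (95% interval -0.53 to 0.67, limma adjusted p = 0.913) therefore averages unlike values, and it was -0.28 with cKO replicate 1 alone and 0.42 with cKO replicate 2 alone. The ratio of Chek1 to Chek2 was 1.05, 1.37 and 1.33 in controls and 1.96 and 1.54 in the cKO, higher in both cKO libraries (exact permutation p = 0.1, the smallest possible).

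Trp53bp1 (chromosome 2, 121194835 to 121296354) was 50.4, 35.6 and 41.2 FPKM in controls and 41.2 and 38.3 in the cKO. Both cKO libraries lay within the range of the controls, which differed 1.41-fold among themselves. The log2 change was -0.08 (95% interval -0.53 to 0.37, limma adjusted p = 0.872), and it was 0.05 without control replicate 1. Map1a, a neuronal microtubule protein whose annotated span overlaps Trp53bp1, was 17.5, 11.99 and 12.8 FPKM in controls and 12.97 and 8.13 in the cKO, and its groups overlapped. Tubgcp4 overlaps it as well.

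**Figure D3:**
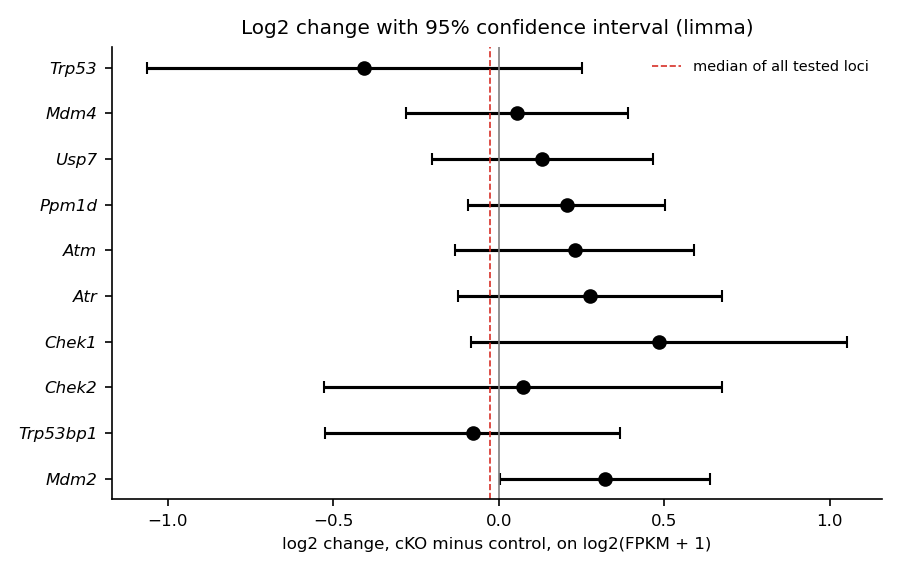
Log2 change of each member and of Mdm2, cKO minus control on log2(FPKM + 1), as points with the 95% confidence interval from limma; the solid line marks 0 and the dashed line the median of all tested loci (-0.03). The interval of every member includes 0, and that of Mdm2 runs from 0.005 to 0.64.

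The order of levels in controls was Trp53, Trp53bp1, Usp7, Mdm4, Ppm1d, Atm, Atr, Chek1 and Chek2, from 62.7 to 3.92 FPKM on average. The control ranges of Trp53 and Trp53bp1 overlapped, as did those of Trp53bp1 and Usp7, of Atr and Chek1 and of Chek1 and Chek2. Usp7 was 2.35 times Mdm4 and Ppm1d 2.44 times Atm, with no overlap. In the cKO, Chek1 (7.29) had a mean above those of Atm (7.02) and Atr (6.84), within their spread. The cKO libraries themselves differed: cKO replicate 2 exceeded cKO replicate 1 in 8 of the 9 members, against 44.5% of tested loci. The exception was Trp53bp1, and for Trp53 the excess was 1.01-fold.

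Mdm2, the main ubiquitin ligase of p53 and itself a p53 target, is no member but sets the scale for Mdm4 and Trp53. It was 24.1, 23.1 and 25.8 FPKM in controls and 28.9 and 32.5 in the cKO (log2 change 0.32, SE 0.13, limma adjusted p = 0.575). Within each library, Mdm2 stood at 0.521, 0.275 and 0.445 times Trp53 in controls and at 0.637 and 0.706 times in the cKO. Ppm1d stood at 0.302, 0.175 and 0.24 times Trp53 against 0.348 and 0.376, and Usp7 at 0.847, 0.413 and 0.674 against 0.854 and 0.954. In these 3 ratios both cKO libraries exceeded every control, although Usp7 did so by less than 0.01. The ratio of Mdm4 to Trp53 overlapped between the groups (0.378, 0.185 and 0.26 against 0.346 and 0.384). Mdm4 stood at 0.726, 0.672 and 0.584 times Mdm2 in controls and at 0.542 and 0.544 times in the cKO, lower in both. Of the 9 ratios computed among these genes, none could pass an exact permutation test with these numbers of libraries, and p lay between 0.1 and 0.6 (Benjamini-Hochberg adjusted 0.36 to 0.6).

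**Figure D4:**
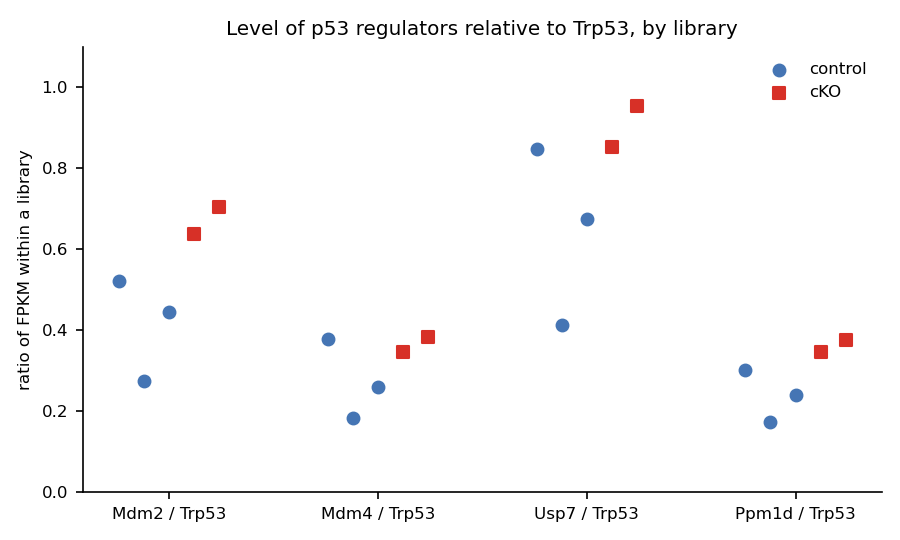
FPKM of Mdm2, Mdm4, Usp7 and Ppm1d divided by that of Trp53 in the same library, with controls as blue circles (replicates 1 to 3 from left to right) and the cKO as red squares (replicates 1 and 2). Control replicate 2 is the lowest for each gene, at 0.175 to 0.413, and the cKO libraries lie above every control for Mdm2, Usp7 and Ppm1d.

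Other genes of the pathway did not pass over all loci either. Of 30 tested further regulators of p53 (ubiquitin enzymes, cofactors, modifying enzymes and family members), 14 had a positive and 16 a negative change, with a median of -0.02. At an unadjusted p under 0.05 in limma, 2 were higher and 1 lower, where 3.08% and 4.37% of all tested loci were. The higher ones were Mdm2 and Trp53inp1, a p53-induced nuclear protein that promotes its activity, at 14.7, 17.6 and 13.3 FPKM in controls and 21.6 and 26.97 in the cKO (log2 change 0.64, SE 0.18, limma adjusted p = 0.575). The lower one was Ppp1r13l, which encodes iASPP, an inhibitor of p53, at 2.67, 4.45 and 2.83 FPKM in controls and 1.28 and 1.49 in the cKO (log2 change -0.84, SE 0.24, limma adjusted p = 0.575). The groups were apart for these 3 genes. In all, both cKO libraries lay above every control for 5 of the 30 and below for 4, against 13.4% and 15.6% of all tested loci. Mdm2 and Trp53inp1 are counted again among the p53 targets below. Btg2 is likewise counted both among the p53 targets and among the intermediate progenitor markers. Kat5 (Tip60), an acetyltransferase of p53 and Atm, was 43.5, 44.9 and 46.4 FPKM against 38.6 and 32.9 (log2 change -0.33, SE 0.13, adjusted p = 0.575 in limma).

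Of 34 genes that sense breaks or stalled forks, relay the signal or act below the checkpoint kinases, none passed, 19 had a positive and 15 a negative change, and the median was 0.01. None had an unadjusted p under 0.05 in limma, where 3.08% of all tested loci were higher and 4.37% lower. In none were the groups apart, where 13.4% of loci lay above and 15.6% below every control. The controls themselves differed. Control replicate 1 was the lowest of the 5 libraries for 21 of the 34 (20.1% of all tested loci). Control replicate 2 was the highest for 17 (34.8%). Timeless, a fork protection factor, was 9.29, 18.7 and 14.7 FPKM in controls and 9.89 and 6.70 in the cKO. Rad1, a subunit of the clamp that activates Atr, was 11.3, 15.9 and 14.6 against 15.8 and 19.2. Xrcc6, which encodes Ku70, was 13.7, 24.2 and 18.1 against 14.04 and 12.95, and the ubiquitin ligase Rnf8 was 41.8, 59.2 and 50.9 against 43.7 and 37.1.

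Among 29 tested transcriptional targets of p53, 20 had a positive change (median 0.33), 11 were higher and 1 lower at an unadjusted p under 0.05, and both cKO libraries exceeded every control for 15. Over all tested loci, 46.9% had a positive change, 3.08% were higher and 4.37% lower at that p, and 13.4% had both cKO libraries above every control. None passed over all loci (smallest limma adjusted p = 0.314, for Ccng1). The list was drawn up with earlier results of these data known, and 8 further targets had a mean below 1 FPKM and were not tested. Trp53 itself stood at 72.8% of control, a size that rested on control replicate 2. Ccng1, which encodes cyclin G1 and had the smallest p of the targets, was 9.61, 7.06 and 7.54 FPKM in controls and 21.7 and 22.3 in the cKO. The other way went 9 of the 29 targets. Gadd45a, the 1 lower at that p, was 5.84, 6.22 and 6.72 FPKM in controls and 4.14 and 2.50 in the cKO. The difference between the target and member lists was not tested.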

How the data were processed

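RNA libraries of control (n = 3) and Chd8 cKO (n = 2) cortex were grouped by their titles, although 1 protocol text names another gene. Per the submitters' processing notes, CASAVA, TopHat, Cufflinks, Bowtie2 and MACS and the build mm10 were used for the series, with no roles given. The deposited table gives FPKM for each library and locus beside group means by the authors; the header does not spell out the unit, which was read from the values. It also holds, per the file headers, the authors' log2 fold change, test statistic score, p-value and q-value. FPKM carries no counts, so no count test was made. Among low values, 4.29% to 13.4% of loci lay within 0.02 log2 units of the commonest ratio between 2 libraries, so whole reads were not recovered.

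Values were taken as log2(FPKM + 1), loci averaging under 1 FPKM were left out, and limma 3.58.1 under R 4.3.3 was fitted with an intensity trend, on 3 residual and 2.49 prior degrees of freedom, with Benjamini-Hochberg adjustment over all 12672 loci at a threshold of 0.05. The fit was checked on simulated data. The log2(FPKM + 1) scale understates changes of low genes. Positions and sequences came from RefSeq (GRCm38.p6, the assembly of mm10), where all 9 members matched by symbol. Members and lists were chosen with earlier results of these data known. Named were all members, Mdm2, Chd8, up to 4 genes of a list with the smallest unadjusted p, and the 3 loci nearest to Trp53. Map1a, Wrap53, Npat and the annotated overlaps are named for their position. Gadd45a is named as the 1 lower p53 target, and Btg2 because lists share it. Not every gene this rule allows is printed. Of the marker lists, vascular (median 0.09), erythroid (0.04) and meningeal (-0.48) genes are not described further, and no locus of these passed. Tried as alternatives were other pseudocounts, filters, scalings, a fit without trend, the replicate number as a block, and leaving out each library.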

Additional observations from a re-analysis of the deposited data

How the results depend on the processing

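No member passed after adjustment under any of the 13 alternatives, and 1 (Trp53, without control replicate 1) reached an unadjusted p under 0.05, so leaving out a library gave 0 to 1 such members. Signs turned in single genes when a library was left out. The log2 change ranged from -0.026 to 0.136 for Mdm4 and from -0.275 to 0.421 for Chek2, both negative without cKO replicate 2, and from -0.195 to 0.049 for Trp53bp1, positive without control replicate 1. It ranged from -0.246 to 0.808 for the globin Hbb-y, from -0.887 to 0.135 for Col1a2 and from -0.828 to 0.175 for Col3a1, with the sign turned without cKO replicate 2 for the first and without control replicate 2 for both collagens. The cause was not tested. The other 6 members kept their sign throughout. Over all tested loci the median log2 change came to -0.003 with median-of-ratios size factors and 0.02 with quantile normalization.

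Of all loci, 2 were higher and 4 lower after adjustment. The higher count was 1 at a mean of at least 5 FPKM, 1 with the replicate block and 2 to 30 when a library was left out. The lower count was 1 without a filter, 2 without trend, 2 with the replicate block and 2 to 10 when a library was left out. With 1 cKO library left, that library is assumed to vary like the others. In the added comparison of groups that stand apart, 4 to 7 members were higher and 1 to 2 lower when a library was left out, where 15.0% to 27.7% of all tested loci were higher and 19.4% to 34.5% lower. The 7 higher members came without cKO replicate 1, with 27.3% of all loci. None was lower with median-of-ratios size factors (0, against 14.5% of all tested loci) or quantile normalization (0, against 12.6%). The latter had 3 higher, against 16.6%. Nothing in the labels says that a replicate number pairs libraries. Same-numbered libraries had deviations correlated at -0.07 and -0.11 across loci. With 2 cKO libraries the deviations of one mirror those of the other, so these values cannot decide whether libraries were paired. With the replicate block 0 members passed. Depth is unknown. With 5 libraries neither Chd8 (log2 change -0.83) nor Ccng1 (1.35) passed after adjustment, so a member that did not pass is not shown to be unchanged.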
